A study of Mus musculus with 16 samples.

Results

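The genes described here are 9 genes of retinoic acid signalling in mouse P19 cells, an embryonal carcinoma line derived from a teratocarcinoma. They are the receptors Rara, Rarb, Rarg and Rxra, the intracellular carriers Crabp1 and Crabp2, the retinol transporter Stra6 and the enzymes Cyp26a1 and Dhrs3. The members were chosen by name: every probe whose gene name on the array is 1 of the 9 was taken, which gave 13 probes of 55681 and 9 genes of the 18337 tested. All 9 genes passed the filter on dim probes. P19 cells were transfected with a control, with a mimic of the microRNA let-7a (let-7a overexpression), with an siRNA against Sfpq (SFPQ knockdown, here siSfpq), or with let-7a and siSfpq together. By the study's methods, the transfected RNAs were at 24 nM and RNA was taken 48 h later, and no retinoic acid is named for the cells on the arrays. The transfections are transient, the control is described by the labels in no more detail, and the level of let-7a itself is not measured here. Each condition has 4 arrays of 1 colour.

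Retinol enters cells through Stra6 and is oxidised by way of retinal to retinoic acid. Crabp1 and Crabp2 bind retinoic acid in the cytoplasm, and Crabp2 hands it to nuclear receptors, which act as pairs of a retinoic acid receptor (Rara, Rarb or Rarg) and a retinoid X receptor such as Rxra. Cyp26a1 oxidises retinoic acid and so removes it, while Dhrs3 reduces retinal back to retinol. Rarb, Cyp26a1, Stra6, Dhrs3 and Crabp2 are themselves known as genes that respond to retinoic acid, which is the classical trigger of neuronal differentiation of P19 cells. Sfpq is an RNA-binding protein of the nucleus, and let-7a is a microRNA whose level rises as stem cells differentiate.

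The sequences behind these comparisons are shown first. The mimic carries the mature let-7a sequence, shown from RefSeq because it defines the treatment, with its seed, bases 2 to 8, in capitals.
let-7a: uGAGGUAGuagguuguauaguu
The promoters of Rarb and Cyp26a1 are shown because they hold the retinoic acid receptor element DR5. DR5 was searched on both strands as a pair of 6-base sites in the same direction with 5 bases between them. A site was AGGTCA or AGTTCA, or either with G as its first base (GGGTCA or GGTTCA). Of the 9 genes, 8 had RefSeq promoters (GRCm38.p6, 250 bases before to 50 after a start), with 18 entries, and 2 of these entries held DR5. Over all 32851 promoters, 32 held it, or 0.0974%. Each stretch below covers the 100 bases before the start, 5′ to 3′ on the strand of the gene, with DR5 in capitals. The Rarb stretch is chr14:16575477-16575576 (minus strand) and the Cyp26a1 stretch is chr19:37697708-37697807 (plus strand).
Rarb: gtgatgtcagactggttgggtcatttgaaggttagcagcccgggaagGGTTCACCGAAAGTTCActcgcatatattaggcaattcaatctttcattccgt
Cyp26a1: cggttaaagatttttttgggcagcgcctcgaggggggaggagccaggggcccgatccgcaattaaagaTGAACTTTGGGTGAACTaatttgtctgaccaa
In Rarb the element ends 36 bases before the start and reads on the gene's strand. In Cyp26a1 it ends 15 bases before the start and reads on the opposite strand. Elements with spacers of 1 base (DR1, in 0.222% of all promoters) or 2 bases (DR2, in 0.268%) were in none of the members' entries. Crabp2 had no promoter entry and was not searched for any of these elements. A match describes these letters and is not a measured binding site.

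Levels are given as log2 of the normalized intensity, and a difference of 1 is a doubling; probes differ in brightness, so levels are not compared between genes. Arrays 1 and 2 of a condition differed by a median of 0.057 to 0.0717 on the log2 scale, against 0.057 between spots of 1 probe on 1 array and 0.114 to 0.366 between other arrays of a condition. The pair was averaged and treated as a single replicate, so that each condition has n = 3 and the series has 12 samples. Where 3 values are given in a row, they are that average, replicate 3 and replicate 4. Between 33733 and 38464 of 59305 spots were well above background on an array. The methods speak of replicates that were transfected, and neither they nor the labels say that these came from separate cultures, so p values measure the spread between these samples and may leave out that between cultures. Genes were called with limma at a Benjamini-Hochberg adjusted p under 0.05 over all 18337 genes; an exact permutation test of 3 samples against 3 cannot give a p under 0.1.

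Sfpq itself checks the labels. Its log2 level was 12.07, 11.98 and 11.99 in control, 12.04, 11.998 and 11.90 in let-7a, 10.56, 11.47 and 10.61 in siSfpq, and 11.31, 11.496 and 11.40 in let-7a + siSfpq. All samples given siSfpq were below all others. The siSfpq sample of replicate 3 kept more Sfpq mRNA than the other siSfpq samples, with a difference from its control of -0.51 against -1.51 and -1.37. In limma, Sfpq was 1.13 lower in siSfpq than in control (SE 0.19, adjusted p = 0.0074). In let-7a + siSfpq it was lower than control by 0.61 (SE 0.19, adjusted p = 0.18) and so was not called.

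The carriers Crabp1 and Crabp2 rose with let-7a and fell with siSfpq. With siSfpq, Stra6 also fell and Cyp26a1 rose, while Rara was called through 1 of its 2 probes. The call of Rarb was lost in the average of its bright probes, of which 1 was called on its own. With both agents, Dhrs3 was the only member called against control, and it was higher. With let-7a against control, 2 of 9 members were called higher and 0 lower, where 4.89% of all genes were called higher and 2.01% lower. The median change of the 9 was 0.207, against -0.0363 over all genes. With siSfpq, 1 of 9 was called higher and 5 of 9 lower, beside 6.32% and 7.32% of all genes, and the medians were -0.372 and 0.00677. The 5 include Rarb, which in the same fit was not called from the average of its bright probes. With let-7a + siSfpq against control, 1 of 9 was called higher and 0 lower, beside 1.29% and 0.229% of all genes, and the medians were 0.0869 and -0.0125. These 3 comparisons share their control samples.

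**Figure D1:**
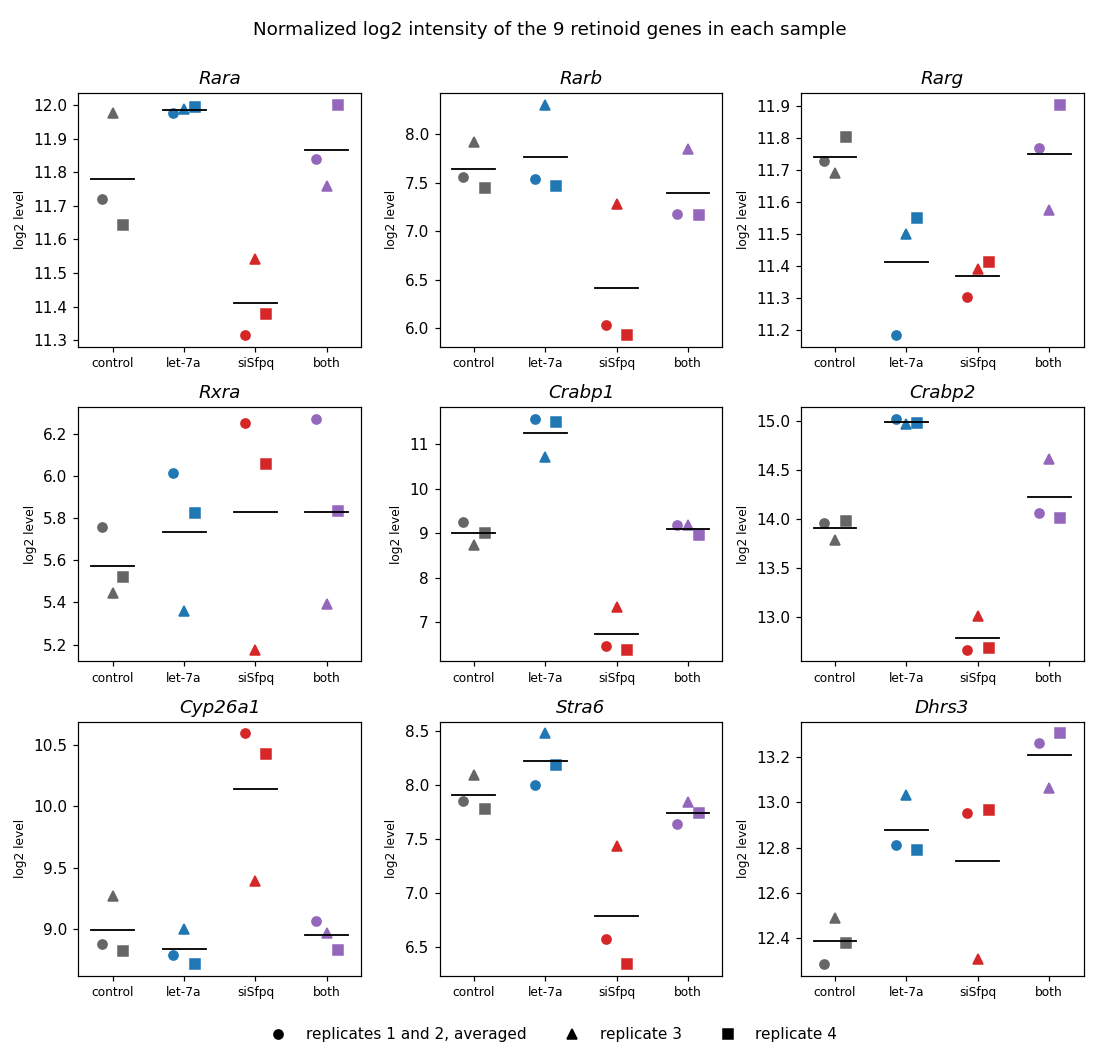
Normalized log2 intensity (vertical axis) of each of the 9 genes in the 4 conditions (horizontal axis, with both for let-7a + siSfpq); each point is 1 sample, its shape gives the replicate number and bars are means of 3 samples. Crabp1 and Crabp2 are highest in let-7a and lowest in siSfpq, and the siSfpq triangle (replicate 3) lies nearer to control than the other siSfpq samples for Rarb, Crabp1, Cyp26a1 and Stra6.

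Crabp1, a binding protein for retinoic acid in the cytoplasm, was read by 1 probe (mm9 chr9:54616192-54616251). Its log2 level was 9.26, 8.74 and 9.01 in control, 11.57, 10.71 and 11.4999 in let-7a, 6.48, 7.35 and 6.39 in siSfpq, and 9.18, 9.19 and 8.95 in let-7a + siSfpq. The let-7a samples lay above all control samples and the siSfpq samples below them, while the combined transfection overlapped with control. Crabp1 rose with let-7a by 2.26 on the log2 scale (SE 0.28, adjusted p = 0.0010), which is 4.78-fold. It fell by 2.27 with siSfpq (SE 0.28, adjusted p = 0.0046), which is 4.81-fold. The let-7a call was lost in 2 of 28 other settings and the siSfpq call in 3, among them the fit of only the groups compared (adjusted p = 0.053). Between let-7a + siSfpq and control the difference was 0.10, with a 95% interval of -0.51 to 0.71.

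Crabp2, the carrier that delivers retinoic acid to the receptors, followed the same order. It was read by 1 probe (mm9 chr3:87757207-87757266). Its log2 level was 13.95, 13.78 and 13.98 in control, 15.02, 14.97 and 14.98 in let-7a, 12.66, 13.01 and 12.68 in siSfpq, and 14.06, 14.61 and 14.00 in let-7a + siSfpq. No group overlapped with another, and replicate 3 of the combined transfection stood above its fellows. Crabp2 rose with let-7a by 1.09 (SE 0.15, adjusted p = 0.0019) and fell by 1.12 with siSfpq (SE 0.15, adjusted p = 0.0046), and these calls were lost in the same settings as those of Crabp1. Against control the combined transfection differed by 0.32 (SE 0.15, adjusted p = 0.44).

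Both carriers were also called when the second agent was added to the first. The comparison of let-7a + siSfpq with let-7a called 0 of 9 members higher and 2 lower, beside 0.96% and 2.17% of all genes, and the 2 were the carriers. Crabp1 fell by 2.15 (SE 0.28, adjusted p = 0.0050) and Crabp2 fell by 0.76 (SE 0.15, adjusted p = 0.022) in that comparison, and the Crabp2 call was lost in 9 of 28 other settings. The comparison of let-7a + siSfpq with siSfpq called 4 of 9 members higher and 1 lower, beside 6.17% and 4.12% of all genes. Crabp1 rose by 2.37 (SE 0.28, adjusted p = 0.0014) and Crabp2 by 1.44 (SE 0.15, adjusted p = 0.00078). Sfpq itself was higher in let-7a + siSfpq than in siSfpq by 0.76, 0.03 and 0.79 within replicate numbers (0.53 in limma, adjusted p = 0.10), and the part of this difference in the members' changes was not tested.

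**Figure D2:**
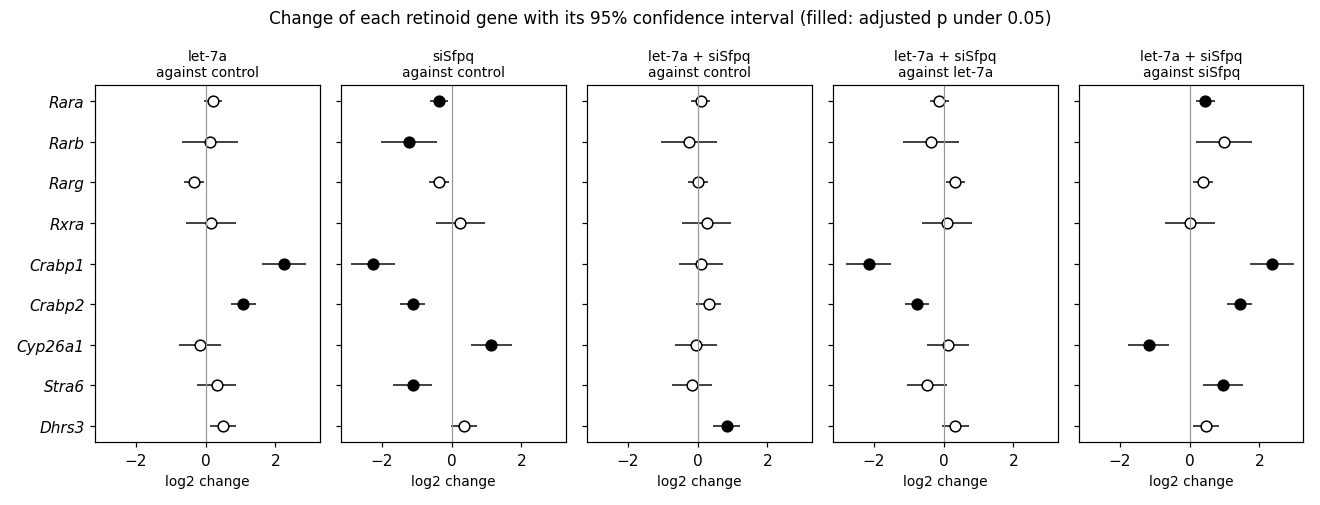
Log2 change (horizontal axis) of each gene (rows) in 5 comparisons (panels), with 95% confidence intervals from the limma fit of 12 samples; filled points had an adjusted p under 0.05. Crabp1 lies at 2.26 with let-7a and at -2.27 with siSfpq, and Dhrs3 is the only filled point for let-7a + siSfpq against control.

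Rarb, the receptor whose own gene responds to retinoic acid and whose promoter with DR5 is shown above, was read by 3 probes, at mm9 chr14:17263367-17263426, chr14:17264648-17264707 and chr14:17651424-17651483. Averaged over the probes, its log2 level was 7.56, 7.92 and 7.45 in control, 7.54, 8.30 and 7.47 in let-7a, 6.03, 7.28 and 5.93 in siSfpq, and 7.18, 7.85 and 7.16 in let-7a + siSfpq. The siSfpq samples lay below all control samples, with replicate 3 close to them. The third probe, A_55_P2099585, was not well above background on any siSfpq array and passed the filter through let-7a. From the average of the other probes, Rarb differed by -1.32 with siSfpq (SE 0.41, adjusted p = 0.056 in limma). It was not called without the block of replicate numbers. Tested singly by limma over 24536 probes, A_55_P1962154 differed by -1.31 (adjusted p = 0.045) and A_55_P2084807 by -1.34 (adjusted p = 0.065). The average of all 3 probes, which the other values of Rarb use, differed by -1.23 (SE 0.36, adjusted p = 0.043), and within replicate numbers by -1.53, -0.64 and -1.52. That call was lost in 19 of 31 other settings of the processing. With let-7a alone Rarb differed by 0.13 (95% interval -0.65 to 0.91).

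Rara, the receptor alpha, was read by 2 probes, at mm9 chr11:98835350-98835409 and chr11:98836197-98836256. Its mean log2 level was 11.72, 11.98 and 11.64 in control, 11.98, 11.99 and 11.995 in let-7a, 11.31, 11.54 and 11.38 in siSfpq, and 11.84, 11.76 and 12.001 in let-7a + siSfpq. The siSfpq samples lay below all others. The average differed by -0.37 with siSfpq (SE 0.11, adjusted p = 0.046) and was higher by 0.45 in let-7a + siSfpq than in siSfpq (SE 0.11, adjusted p = 0.027). These calls were lost in 17 and in 9 of 30 other settings, and the probes disagreed. Tested on its own, A_55_P2095345 fell by 0.64 with siSfpq (adjusted p = 0.020), and by replicate number it differed by -0.84, -0.29 and -0.78. The probe A_55_P2095342 differed by -0.10 (adjusted p = 0.73), and by replicate number by 0.03, -0.58 and 0.25, which is lower in 1 of 3. Between let-7a + siSfpq and siSfpq, A_55_P2095345 differed by 0.76 (adjusted p = 0.012) and A_55_P2095342 by 0.15 (adjusted p = 0.59).

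Rarg, the receptor gamma, which is abundant in undifferentiated embryonal cells, was read by 1 probe (mm9 chr15:102065371-102065430). Its log2 level was 11.73, 11.69 and 11.81 in control, 11.18, 11.502 and 11.55 in let-7a, 11.31, 11.39 and 11.41 in siSfpq, and 11.77, 11.58 and 11.91 in let-7a + siSfpq. The samples with either agent alone were below all samples of control and of the combined transfection. The difference from control was -0.33 with let-7a (SE 0.12, adjusted p = 0.12) and -0.37 with siSfpq (SE 0.12, adjusted p = 0.055), neither of which was called. With both agents it was 0.01 (95% interval -0.25 to 0.26).

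Replicate numbers paired the samples, and a fit with the number as a block (replicate block) gave smaller errors for 7 of 9 members and slightly larger ones for Crabp1 (SE 0.283 against 0.278) and Cyp26a1 (0.262 against 0.26). In it Rarg was called lower with let-7a (adjusted p = 0.031), and Dhrs3 was called higher (adjusted p = 0.048), which made 3 of 9 members higher and 1 lower, beside 11.6% and 10.2% of all genes. With siSfpq it called Rarg lower too (adjusted p = 0.014), which made 6 of 9 lower, Rarb among them, beside 19.3% of all genes. For let-7a + siSfpq against let-7a it called Rarg higher (adjusted p = 0.040), 1 of 9 beside 6.02%. For let-7a + siSfpq against siSfpq it added Rarb (0.99 with its dim probe, adjusted p = 0.0037), Rarg (0.38, adjusted p = 0.015) and Dhrs3 (0.47, adjusted p = 0.044), which made 7 of 9 higher beside 17.6%. From the bright probes alone, the block called Rarb as well, at -1.32 with siSfpq (SE 0.14, adjusted p = 0.0013) and at 1.11 for let-7a + siSfpq against siSfpq (SE 0.14, adjusted p = 0.0015), while without the block the latter was not called (adjusted p = 0.11).

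**Figure D3:**
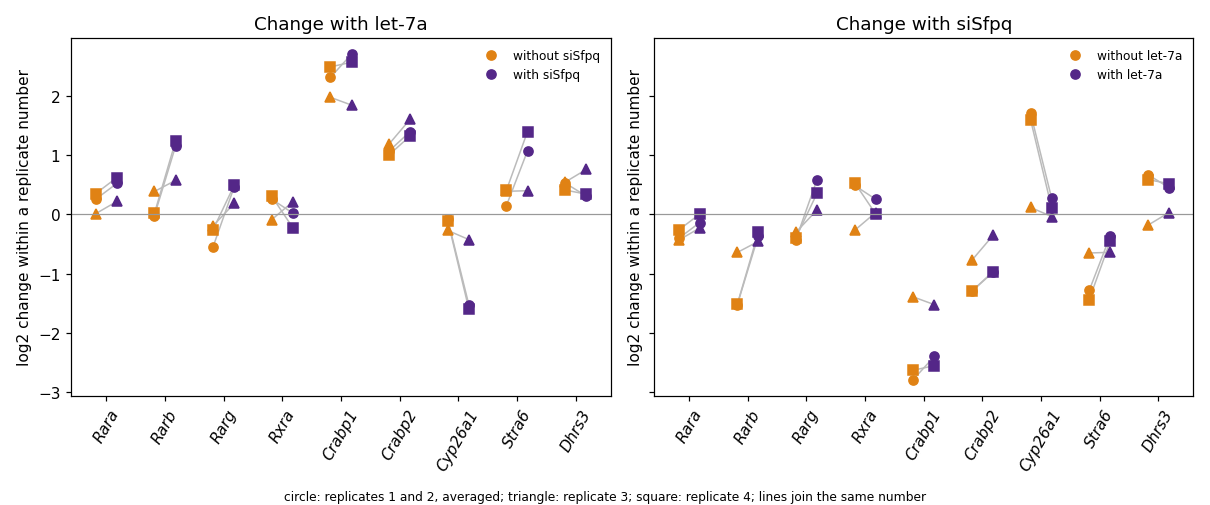
Log2 change within a replicate number (vertical axis) of each gene with let-7a (left) and with siSfpq (right); orange points are changes without the other agent, purple points with it, and lines join the same number. All 3 Rarg pairs cross 0 in both panels, and for Rarb, Cyp26a1 and Stra6 the siSfpq change of replicate 3 without let-7a is smaller than that of the other samples.

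Rxra, the partner of the retinoic acid receptors, was not called in any comparison. Its mean log2 level over 2 probes (mm9 chr2:27615316-27615375 and chr2:27618781-27618839) lay between 5.45 and 5.76 in control, 5.36 and 6.02 in let-7a, 5.18 and 6.25 in siSfpq, and 5.39 and 6.27 in let-7a + siSfpq. All 4 ranges overlapped, and replicate 3 was the lowest sample of every condition. The change was 0.16 with let-7a (95% interval -0.52 to 0.84) and 0.25 with siSfpq (95% interval -0.43 to 0.93). The probes went apart: with siSfpq, A_51_P307370 differed by 0.57 and A_55_P2074331 by -0.07, with adjusted p of 0.44 and 0.88.

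**Figure D4:**
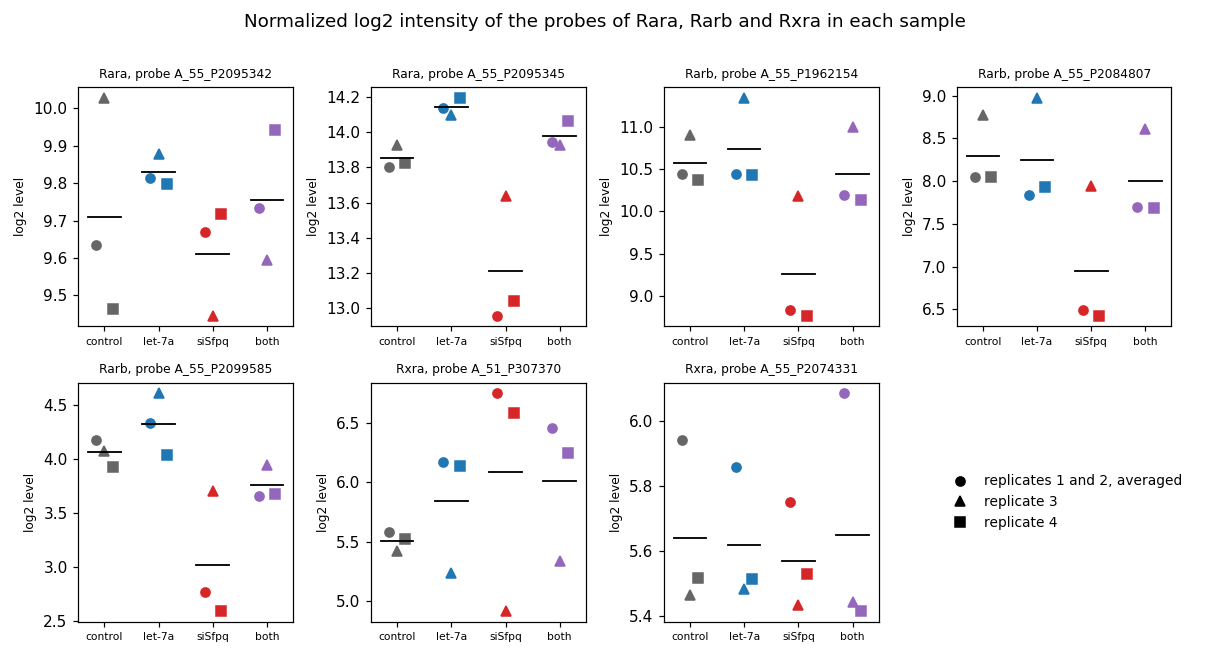
Normalized log2 intensity (vertical axis) of each probe of Rara, Rarb and Rxra in the 4 conditions (both is let-7a + siSfpq); points are samples, shapes are replicate numbers and bars are means. The Rarb probes A_55_P1962154 and A_55_P2084807 have their lowest mean in siSfpq, where A_55_P2099585 is not well above background, the siSfpq samples lie below all others for A_55_P2095345 and not for the other Rara probe, and the Rxra probes do not share a pattern.

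The third Rarb probe was dim. It was well above background on 2 of 4 control arrays, on 4 of 4 let-7a arrays, on 0 of 4 siSfpq arrays and on 2 of 4 arrays of the combined transfection, so no fold is given for it. The other 12 probes of the members were well above background on all 16 arrays, and none of the 13 had an outlier or a saturated spot.

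Stra6, the membrane transporter that takes up retinol from its carrier in blood, was read by 1 probe (mm9 chr9:58001701-58001760). The log2 level was 7.85, 8.09 and 7.77 in control, 7.997, 8.47 and 8.18 in let-7a, 6.57, 7.44 and 6.34 in siSfpq, and 7.64, 7.84 and 7.74 in let-7a + siSfpq. The siSfpq samples were below all others. Stra6 fell by 1.12 with siSfpq (SE 0.25, adjusted p = 0.017), and was higher by 0.96 in let-7a + siSfpq than in siSfpq (SE 0.25, adjusted p = 0.035). These calls were lost in 8 and in 12 of 28 other settings. With let-7a alone it differed by 0.31 (SE 0.25, adjusted p = 0.55).

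Cyp26a1, the enzyme that degrades retinoic acid and whose promoter with DR5 is shown above, went the other way. It was read by 1 probe (mm9 chr19:37775566-37775625). The log2 level was 8.88, 9.27 and 8.83 in control, 8.80, 9.004 and 8.72 in let-7a, 10.59, 9.39 and 10.43 in siSfpq, and 9.07, 8.97 and 8.83 in let-7a + siSfpq. The siSfpq samples lay above all others, replicate 3 only by a little. Cyp26a1 rose with siSfpq by 1.14 (SE 0.26, adjusted p = 0.019), and within replicate numbers the difference was 1.71, 0.12 and 1.60. It was lower by 1.18 in let-7a + siSfpq than in siSfpq (SE 0.26, adjusted p = 0.021), and each of these calls was lost in 7 of 28 other settings. Against control the combined transfection differed by -0.04 (95% interval -0.61 to 0.53).

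Dhrs3, which reduces retinal to retinol, was highest with both agents. It was read by 1 probe (mm9 chr4:144517485-144517544). The log2 level was 12.28, 12.49 and 12.38 in control, 12.81, 13.03 and 12.79 in let-7a, 12.95, 12.31 and 12.97 in siSfpq, and 13.26, 13.06 and 13.31 in let-7a + siSfpq. The samples of let-7a and of the combined transfection lay above all control samples, while siSfpq replicate 3 lay among them. The change was 0.50 with let-7a (SE 0.16, adjusted p = 0.095), 0.36 with siSfpq (SE 0.16, adjusted p = 0.155) and 0.83 with both (SE 0.16, adjusted p = 0.031). The last is 1.78-fold, and it missed the threshold in 10 of 28 other settings.

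Whether an agent acted differently beside the other was tested as the interaction, the change with let-7a in cells given siSfpq minus that in cells without it. It called 0 of 9 members and 0% of all genes, while 1159 genes had an unadjusted p under 0.05. The replicate block called 0 of 9 members beside 0.0218% of all genes. The value was 0.86 for Rarb (SE 0.50, adjusted p = 0.84), and 1.05 from its bright probes alone (SE 0.58, adjusted p = 0.83). It was -1.03 for Cyp26a1 (SE 0.37, adjusted p = 0.76), 0.71 for Rarg (SE 0.16, adjusted p = 0.70) and 0.64 for Stra6 (SE 0.35, adjusted p = 0.82). For Crabp1 it was 0.11 (95% interval -0.75 to 0.97). Without replicate 3 of all conditions, which leaves 2 samples in each, Rarb, Rarg, Crabp2, Cyp26a1 and Stra6 were called, 5 of 9 beside 22.3% of all genes.

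The 2 slides each held all 4 conditions, with replicates 1 and 2 on slide 1 and replicates 3 and 4 on slide 2. With siSfpq, Crabp1 differed by -2.78 on slide 1 and -2.01 on slide 2, Crabp2 by -1.29 and -1.03, Rarb by -1.53 and -1.08, Stra6 by -1.28 and -1.04, and Cyp26a1 by 1.71 and 0.86. With let-7a, Crabp1 differed by 2.31 and 2.23 and Crabp2 by 1.07 and 1.10. Each kept its sign on both slides. Without replicate 4 of every condition, or without the average of replicates 1 and 2, no member was called in any comparison by limma, and 0 to 3 genes of all were. Leaving out 1 control sample, or the siSfpq average of replicates 1 and 2 or siSfpq replicate 4, left 2 or 3 of 9 members called with siSfpq, Crabp1 and Crabp2 each time, beside 1.66% to 8.33% of all genes. Without replicate 3 of every condition 8 of 9 were called, beside 49.2% of all genes.

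Of 58 further genes of the pathway listed by role, 43 passed the filter on dim probes. The 15 that did not pass include the retinol dehydrogenases Dhrs9, Adh1 and Adh7, the degrading enzyme Cyp26c1, and Hoxb1, Hoxa2, Hoxb2, Hoxb4, Hoxb5, Stra8 and Gbx2, which are known to rise with retinoic acid. Among the 43, 4 were called higher and 3 lower with let-7a, and 7 higher and 3 lower with siSfpq, beside 6.9% and 13.6% of all genes called in either direction. Their median change was -0.00941 with let-7a and -0.0124 with siSfpq.

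Of the enzymes that oxidise retinol and retinal, Aldh1a1, which makes retinoic acid from retinal, rose with let-7a by 1.61 (SE 0.23, adjusted p = 0.0020) and with let-7a + siSfpq by 2.23 (SE 0.23, adjusted p = 0.0011). With siSfpq it differed by -0.08 (adjusted p = 0.85). Aldh1a2, the main retinoic acid-forming enzyme of the early embryo, rose with siSfpq by 1.51 (SE 0.34, adjusted p = 0.019), as did the reductase Rdh11 by 1.36 (SE 0.36, adjusted p = 0.030). None of the 7 tested genes of this list was called lower. Of the genes for uptake, storage and transport, 0 of 5 tested were called with either agent by limma. The other retinoid X receptors, Rxrb and Rxrg, and the degrading enzyme Cyp26b1 were not called in any of the comparisons with control. Of 10 coregulators, the repressor Tgif1 fell by 0.30 with let-7a (SE 0.07, adjusted p = 0.033) and the corepressor Nrip1 rose by 0.38 with siSfpq (SE 0.11, adjusted p = 0.043).

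Genes known to rise with retinoic acid went both ways. Of 12 tested, 3 were called higher and 0 lower with let-7a, beside 4.89% and 2.01% of all genes. Among the 3 were the homeobox gene Meis1 (1.26, adjusted p = 0.021) and the transglutaminase Tgm2 (0.65, adjusted p = 0.018). With siSfpq, 2 were called higher and 3 lower, beside 6.32% and 7.32% of all genes. The caudal homeobox gene Cdx1 rose by 1.53 (adjusted p = 0.0054) and the orphan receptor gene Nr2f1 fell by 0.91 (adjusted p = 0.048). Of 6 tested genes known to fall with retinoic acid, Fgf8 fell by 1.53 (adjusted p = 0.0019) and Nanog by 0.58 (adjusted p = 0.0076) with let-7a. With siSfpq, Fgf8 rose by 1.28 (adjusted p = 0.0067) and Fgf4 by 1.11 (adjusted p = 0.012).

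**Figure D5:**
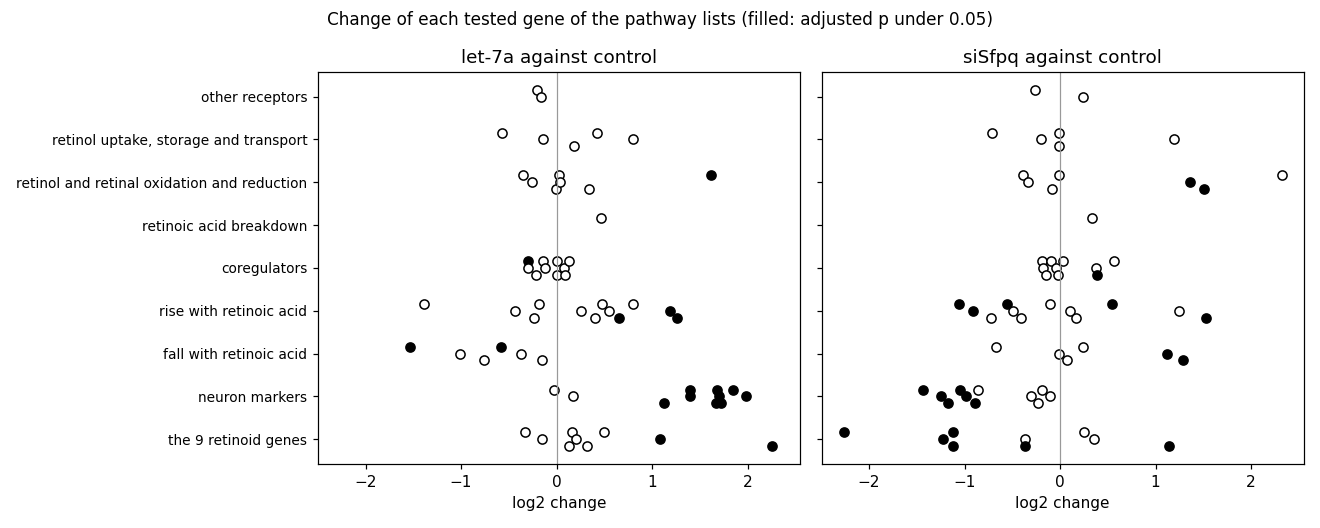
Log2 change (horizontal axis) of each tested gene of the pathway lists, of the neuron markers and of the 9 retinoid genes (rows), with let-7a (left) and siSfpq (right) against control; filled points had an adjusted p under 0.05. Of 11 neuron markers, 9 are filled at higher values with let-7a and 6 at lower values with siSfpq, the directions in which Crabp1 and Crabp2 moved. Among all genes, 4.89% were called higher with let-7a and 7.32% lower with siSfpq.

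Markers of cell types moved in the same samples. All 7 embryonal carcinoma markers listed, such as Pou5f1, passed the filter. With let-7a 3 of them were called lower, Utf1 (-0.70), Nanog (-0.58) and Lin28a (-0.77), beside 2.01% of all genes. Lin28a is a known direct target of let-7a, and without it 2 of 6 were called, while Pou5f1 (-0.15) and Sox2 (0.12) were not. With siSfpq, Utf1 was called higher (0.78) and Sox2 lower (-0.72), beside 6.32% and 7.32% of all genes. Of 11 neuron markers, 9 were called higher with let-7a and 0 lower (median 1.66), beside 4.89% and 2.01% of all genes (median -0.0363). With siSfpq, 0 of the 11 were called higher and 6 lower (median -0.895), beside 6.32% and 7.32% of all genes (median 0.00677). Their mean log2 level was 10.39 to 11.06 in control, 11.66 to 12.43 in let-7a, 9.94 to 10.10 in siSfpq and 10.77 to 10.97 in let-7a + siSfpq, and none was below background on all arrays of a condition. Of the other lists, 0 of 3 tested glia markers were called with either agent, 1 of 5 mesendoderm markers was called with each agent (T, at -2.29 with let-7a and 1.91 with siSfpq), and 1 of 5 fibroblast markers was called with let-7a (Col1a2, 0.71). Beside these, 6.9% of all genes were called with let-7a and 13.6% with siSfpq, in either direction. When the second agent was added, 0 of the 11 neuron markers were called higher and 8 lower in let-7a + siSfpq against let-7a (median -1.32), and 5 higher and 0 lower against siSfpq (median 0.978), beside 3.12% and 10.3% of all genes called in either direction. From the other marker lists, T (1.81), Eomes (0.96) and Utf1 (0.88) were called higher against let-7a. Olig2, not well above background on all arrays, was called lower there (-1.90, adjusted p = 0.040 in limma). Against siSfpq, T (-2.39), Nanog (-0.65) and Lin28a (-0.64) were called lower and Col1a2 (0.70) higher. Among the 11, Tubb3, a tubulin of neurons, changed by 1.40 and -1.44 and Map2 by 1.12 and -1.25 with let-7a and with siSfpq. Against let-7a and against siSfpq alone, the combined transfection differed in Tubb3 by -1.65 and 1.196 and in Map2 by -1.01 and 1.36. In bulk cultures, more cells of a type and more RNA per cell cannot be told apart, and the part of a shift in cell types in the changes of Crabp1 and Crabp2 was not tested.

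The genes with the most similar pattern were found by the root mean square difference of centred log2 levels over the 12 samples, among 16434 genes with a probe well above background on all arrays. For Crabp1 they were Eya2 (0.271), Clvs1 (0.295) and Srrm4 (0.322), and for Crabp2 they were 5830408B19Rik (0.161), Dusp26 (0.188) and Map2 (0.191). For Rara they were Reep2 (0.0789), NAP058906-1 (0.0837) and Fbxo21 (0.0905). For Stra6 they were Fcrl5 (0.118), Raet1c (0.134) and Atp1b2 (0.14), and for Cyp26a1 they were Micu3 (0.142), H3c11 (0.164) and Kif18b (0.166). For Dhrs3 they were Sod2 (0.119), Cdkn2b (0.133) and Socs3 (0.16). Rarb was left out for its dim probe, and these are descriptions over samples that share their treatments, with no test.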

How the data were processed

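Labeled cRNA of P19 cells (400 ng per array, per the methods) was hybridized to 16 Agilent arrays of 1 colour. The authors deposited scanner intensities of Feature Extraction 10.7.3.1 with probe positions on mm9. The processed intensity is background-subtracted, and it is not normalized between arrays. The authors also deposited log2 values, quantile normalized with limma per the methods, whose column medians are 6.228 to 6.2444 and which follow each array's median spot intensity, without background subtraction (correlation 0.99948 or more). They are uncentred, and were used as an alternative.

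Here processed intensities were put on the log2 scale and normalized between arrays by quantiles with limma 3.58.1 in R 4.3.3, with Python 3.11.15 for tables. A probe was kept if every array of some condition (4 of 4) had it well above background, 39 with a missing value were dropped, and probes of a gene were averaged. Probes were named through RefSeq accessions where they matched (28026 of 55681), and probes without a gene name were left out. Conditions were compared in 1 limma fit with an intensity trend, with two-sided tests, and the fit was tested on simulated data. The alternatives were other scaling, background correction, filters, probe rules, blocks and fits, the authors' values and each left-out replicate; the fits of single probes and of the bright Rarb probes with the replicate block were chosen after seeing the data. The members, the gene lists and the tests were chosen with earlier results of these data known. Named genes are all members, Sfpq, at most 4 called genes per list and comparison, and the 3 most similar genes of each called member with all probes well above background; genes named without a call are given for their role. Some genes of the lists are counted and not reported here by name.

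The labels count 4 replicates per condition, and the methods name 3 transfected replicates. Replicate numbers paired the samples: deviations from the condition means of same-numbered samples correlated by 0.284 to 0.708 in all 18 pairs. The number of arrays limits the precision.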

Additional observations from a re-analysis of the deposited data

Results flagged for a closer look

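Rarg went opposite ways in every sample. With let-7a its difference was -0.54, -0.19 and -0.26 without siSfpq and 0.47, 0.18 and 0.49 with it. With siSfpq it was -0.42, -0.30 and -0.39 without let-7a and 0.59, 0.08 and 0.36 with it. The difference of the changes was 0.71 either way (SE 0.16, unadjusted p = 0.0011, adjusted p = 0.70 in limma), so the test over all genes did not call it. This interaction of Rarg ranged from 0.56 to 0.88 over the other settings and was called in 3 of 28. The 3 were the 16 arrays as separate samples, the fit without replicate 3 of all conditions and the fit without siSfpq replicate 3. In the same order, 0.987%, 22.3% and 7.54% of all genes were called.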

How the results depend on the processing

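Of 1554 recomputed log2 changes of members, 1345 kept their direction and their side of the threshold, 114 lost a call, 50 gained one and 45 turned direction, all 45 in members not called in that comparison. Some settings cannot alter the change itself, only its error and call. They are the blocks, the fit without intensity trend, the fit of only the groups compared, and a left-out sample of a condition not compared. With all 16 arrays as separate samples, 4 members were called with let-7a, 8 for let-7a + siSfpq against siSfpq and 1 in the interaction, beside 19.8%, 32.4% and 0.987% of all genes. With the replicate block, 4 were called with let-7a and 8 for let-7a + siSfpq against siSfpq, beside 21.8% and 33.3%. It changed no call beyond those given above. Fitting only the groups compared called 0 with siSfpq, 1 for let-7a + siSfpq against let-7a and 2 against siSfpq, beside 0%, 3.05% and 1.21%. Without the filter on dim probes 0 were called for let-7a + siSfpq against control and 1 against let-7a, beside 0.661% and 1.12%, and scaling to the 75th percentile called 1 in the latter, beside 2.72%.

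Over the left-out replicates, the members called ranged from 0 to 5 with let-7a, 0 to 8 with siSfpq, 0 to 1 for let-7a + siSfpq against control, 0 to 5 against let-7a, 0 to 8 against siSfpq and 0 to 5 in the interaction, with the highest counts without replicate 3 in all but the third. In the same order, the share of all genes called ranged from 0.0109% to 30%, and from 0% to 49.2%, 18.2%, 26.7%, 47.1% and 22.3%. A pair of samples left in a condition was assumed to vary like the others. The cause of these shifts was not tested.

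Some small changes turned direction over left-out replicates. With let-7a, Rarb ranged from -0.14 to 0.28. For let-7a + siSfpq against control, Rara ranged from -0.048 to 0.24, Rarg from -0.068 to 0.096, Crabp1 from -0.072 to 0.23 and Cyp26a1 from -0.15 to 0.10. Rxra ranged from -0.12 to 0.32 against let-7a, from -0.32 to 0.22 against siSfpq and from -0.48 to 0.067 in the interaction, in which Crabp1 ranged from -0.16 to 0.42 and Dhrs3 from -0.24 to 0.087. Single probes gave -0.042 for Rarb with let-7a (A_55_P2084807), and for Rxra -0.023 with let-7a, -0.070 with siSfpq and 0.10 in the interaction (A_55_P2074331). For let-7a + siSfpq against siSfpq, Rxra was -0.024 with normexp and -0.070 with its brightest probe, A_51_P307370. Cyp26a1 was 0.018 for let-7a + siSfpq against control with 16 arrays. The Crabp1 interaction was -0.29 with normexp and -0.14 with the authors' values. The cause was not tested.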
